A study of Mus musculus with 33 samples.

Results

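The genes described here are the members of the PARP family and the NAD glycohydrolases that the deposited table names as Parp1, Parp2, Parp3, Parp9, Parp10, Parp12, Parp14, Cd38, Bst1 and Sarm1. They were taken by gene symbol and make up 10 of the 56414 rows of the table. They fall into 3 DNA repair PARPs (Parp1, Parp2 and Parp3), 4 PARPs linked to interferon responses (Parp9, Parp10, Parp12 and Parp14) and 3 NAD glycohydrolases (Cd38, Bst1 and Sarm1). Tumor-free C57Bl/6 mice were left untreated or received nicotinamide (NAM, the amide of vitamin B3) at 0.5% in their drinking water over 1, 3 or 14 days, and RNA from lymphoid organs was then sequenced. The spleen label covers 5 untreated libraries and 5 at each duration of NAM, and the lymph node label covers 3 untreated libraries, 2 at 1 day, 4 at 3 days and 4 at 14 days. No allele, tumor or second agent distinguishes the groups, and the age and sex of these mice are not given in the labels. The labels number the libraries of a group without saying that each came from a separate mouse, so the p-values measure the spread between these libraries, which may be technical.

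Poly(ADP-ribose) polymerases split NAD into nicotinamide and ADP-ribose and attach the ADP-ribose to proteins. PARP1 and PARP2 build long chains at DNA breaks and recruit repair factors such as XRCC1, while PARP9, PARP10, PARP12 and PARP14 are linked to antiviral and interferon signaling, and those of them with transferase activity add single units. CD38 and BST1 (CD157) are ectoenzymes that consume NAD outside the cell, CD38 being prominent on lymphocytes, and SARM1 is an intracellular NAD glycohydrolase known from degenerating axons. Nicotinamide is a product of all of these reactions, inhibits several of the enzymes, and is recycled into NAD by NAMPT.

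The 2 tissue labels stood against the markers of both organs in all 33 libraries. Glycam1, a product of high endothelial venules in lymph nodes, was at 108167 to 214210 normalized counts in libraries labeled spleen and at 1.59 to 12.4 in those labeled lymph node. Spic, which marks red pulp macrophages of the spleen, was at 774 to 1295 and at 6117 to 10491 in the same order, and the spleen genes Tlx1 and Nkx2-5 were at 0 to 4.07 and at 0 under the spleen label against 351 to 573 and 167 to 267 under the lymph node label. The organs are therefore named only by their label, "labeled spleen" and "labeled lymph node". The first principal component of the 20 libraries labeled spleen held 30.1% of the variance, with untreated and 1-day libraries overlapping along it. Its ends were untreated replicate 1 (−62.5) and 1-day replicate 2 (74.3). Their summed counts of the adipocyte genes Adipoq, Plin1, Cfd and Lep were 16802 and 211730. What this component follows was not tested. On the second principal component of these libraries, which held 13.6% of the variance, all 5 libraries at 1 day and 4 of the 5 at 3 days lay on 1 side, and the other 11 lay on the other side, among them 3-day replicate 1. Depth was 18325061 to 54830743 whole reads per library labeled spleen and 30424968 to 46733974 per library labeled lymph node. The labels give no batch, so that division of the libraries and 1 day of NAM cannot be told apart. In bulk RNA, fewer cells of a type and less RNA per cell cannot be told apart either.

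Promoter sequence is shown for 3 members, the DNA repair genes Parp1 and Parp2 and the interferon-linked Parp12, beside the interferon-stimulated gene Isg15, because Parp2 fell while Parp12 and Isg15 rose at 1 day under the spleen label. Each is 300 bases from RefSeq on GRCm38.p6, from 250 bases before the annotated start to 50 after it, read 5′ to 3′ on the strand of the gene. Capitals mark matches, on either strand, to the core of the interferon-stimulated response element (ISRE, GAAANNGAAA), to the gamma-activated site (GAS, TTCNNNGAA) or to the GC box (GGGCGG).
Parp1, chr1:180568641-180568940, plus strand: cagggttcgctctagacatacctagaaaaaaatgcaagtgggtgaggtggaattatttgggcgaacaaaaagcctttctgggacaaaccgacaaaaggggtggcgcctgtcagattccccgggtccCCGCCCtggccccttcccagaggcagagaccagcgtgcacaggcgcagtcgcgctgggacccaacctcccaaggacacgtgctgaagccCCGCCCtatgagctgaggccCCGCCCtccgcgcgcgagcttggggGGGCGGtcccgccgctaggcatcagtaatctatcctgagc
Parp2, chr14:50807666-50807965, plus strand: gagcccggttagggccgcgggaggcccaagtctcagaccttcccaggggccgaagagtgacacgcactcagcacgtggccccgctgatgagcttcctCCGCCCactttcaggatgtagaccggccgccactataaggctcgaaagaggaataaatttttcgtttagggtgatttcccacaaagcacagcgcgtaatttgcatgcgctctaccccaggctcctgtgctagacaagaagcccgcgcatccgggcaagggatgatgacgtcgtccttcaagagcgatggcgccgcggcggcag
Parp12, chr6:39118300-39118599, minus strand: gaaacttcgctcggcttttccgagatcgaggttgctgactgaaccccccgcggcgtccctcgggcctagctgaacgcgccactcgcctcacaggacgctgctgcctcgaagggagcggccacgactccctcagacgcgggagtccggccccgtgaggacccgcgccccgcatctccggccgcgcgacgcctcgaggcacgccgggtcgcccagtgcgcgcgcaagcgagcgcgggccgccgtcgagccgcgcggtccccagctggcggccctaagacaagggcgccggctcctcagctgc
Isg15, chr4:156200769-156201068, minus strand: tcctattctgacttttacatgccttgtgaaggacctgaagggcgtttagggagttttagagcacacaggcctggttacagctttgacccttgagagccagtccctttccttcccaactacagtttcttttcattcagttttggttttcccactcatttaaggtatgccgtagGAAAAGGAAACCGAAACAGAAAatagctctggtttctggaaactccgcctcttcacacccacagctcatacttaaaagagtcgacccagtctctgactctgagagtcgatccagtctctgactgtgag

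Of the 10 members, 6 had an entry in the promoter table, and Parp9, Parp10, Parp14 and Bst1 did not. None of the 6 windows held the ISRE core, which is present in 3.44% of the 32851 mouse promoters of this length, or the GAS motif, which is present in 8.3%. These letters being absent from 300 bases says nothing about where a factor binds. The Isg15 window held 3 overlapping ISRE cores, starting 78, 72 and 66 bases before the start. GC boxes, found in 35.7% of all promoters, occurred 4 times in Parp1 (124, 35 and 15 bases before the start and 11 bases into the transcript), once in Parp2 (153 bases before) and once in Sarm1 (68 bases before). Parp12 had the most GC-rich of the 6 windows, with 73.7% G or C and 46 CpG dinucleotides against a median of 52.7% and 7 over all promoters. Cd38 stood at the other end with 51.7% and 1 CpG.

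All 10 members were expressed above the filter (a mean of at least 10 normalized counts) under both labels. Exon lengths for the next order came from GENCODE, while the rows follow another annotation (the Parp12 row begins at 39077903, its GENCODE gene at 39086410). For its other RNA-seq sets the paper describes counting on constitutive regions only. The order between genes is therefore approximate. Per kilobase of annotated exon, untreated libraries labeled spleen ranked Parp1 highest at 1661 ± 108 normalized counts (SD, n = 5). Parp9 (578 ± 57.1) and Parp3 (569 ± 36.5) came next and did not differ beyond their spread. Bst1 (315 ± 44.1), Cd38 (265 ± 24.2) and Parp12 (243 ± 35.0) formed a middle tier in which neighbors overlapped within 1 SD. Parp2 (189 ± 6.92), Parp14 (148 ± 19) and Sarm1 (13.8 ± 2.13) were lowest. Untreated libraries labeled lymph node kept Parp1 (1550 ± 157, n = 3) and Parp9 (830 ± 46.8) at the top and Sarm1 (8.73 ± 0.773) at the bottom, with Cd38 (546 ± 46.1) next after them and Bst1 (176 ± 10.5) below Parp2 (258 ± 10.1). The row that names Parp10 also names Plec, the gene of the cytoskeletal linker plectin, on the same strand (Plec // Parp10, chr15:76170974-76243441, mm10), so its value cannot be assigned to Parp10 and it was left out of this order.

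Levels between the labels are descriptive, since the normalization set the 2 sets of libraries apart by 0.13 on the log2 scale. Cd38 lay at 791 to 1214 normalized counts in the 20 libraries labeled spleen and at 1791 to 2326 in the 13 labeled lymph node, with no overlap. Parp2 also separated the labels, at 510.0 to 787 against 893 to 1109, as did the Plec // Parp10 row in the other direction, at 412 to 854 against 117 to 234. These 3 of 10 members compare with 32.2% of the 17147 genes measured under both labels whose libraries did not overlap. The other 7 members overlapped between labels. The untreated means of Bst1 were 1045 and 584, those of Parp9 2814 and 4043, and those of Parp1 8794 and 8206 for the spleen and lymph node label in turn. B cell markers also differed between the labels, and not all in the same direction. In untreated libraries labeled spleen Ms4a1 (CD20) averaged 5326 normalized counts and Pax5 4653, and in those labeled lymph node they averaged 14309 and 3508. Their part in the levels of Cd38, which B cells express, was not tested.

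**Figure D1:**
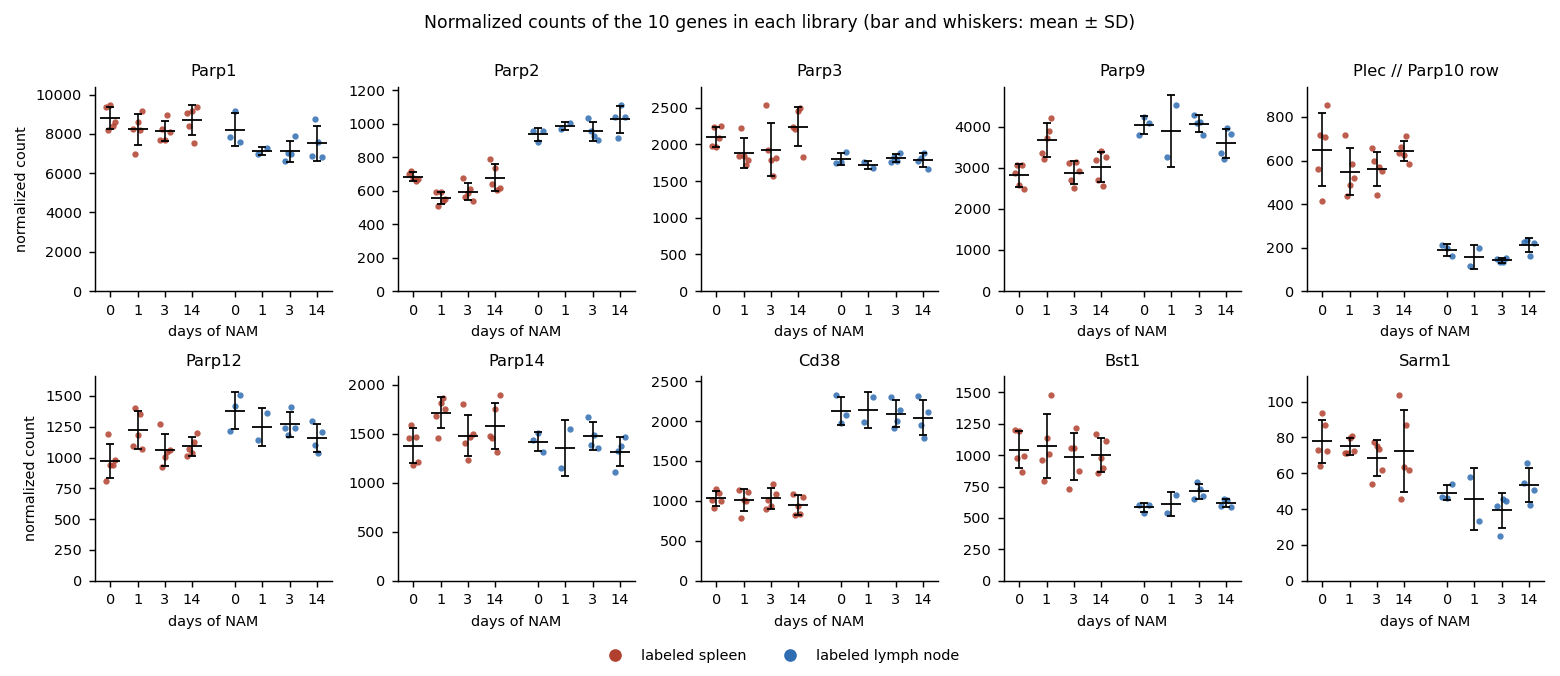
Normalized counts of the 10 members in every library (points) with group mean and SD (bar and whiskers), against days of NAM (0, untreated), for libraries labeled spleen (left, red) and labeled lymph node (right, blue), each panel starting at 0. Under the spleen label the 5 points of Parp9 at 1 day lie above, and those of Parp2 below, all 5 untreated points, and the panels of Cd38, Parp2 and Plec // Parp10 show the labels apart.

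Members passed the test most often at 1 day of NAM under the spleen label. Parp9 and Parp12 rose, Parp2 fell, and the other 7 did not pass (limma, Benjamini-Hochberg adjusted p under 0.05 over 18243 genes). These 3 of 10 members stand beside 16.6% of all genes tested, of which 8.56% rose and 8.05% fell, so a response of that size among the members is not far from the background. None of the 3 changes reached 1.5-fold.

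Parp9 (chr16:35938470-35972621, mm10) encodes the macrodomain protein that works in a complex with the E3 ligase DTX3L, encoded by the adjoining gene on the opposite strand. Its normalized counts under the spleen label were 2869, 3080.3, 2577, 3068 and 2474 in untreated libraries and 3361, 3203, 3717, 3890.1 and 4208 after 1 day of NAM. Every library at 1 day was above every untreated one, as happened in either direction for 11.9% of all genes. The mean went from 2814 ± 278 to 3676 ± 404 (SD, 5 libraries each), which is 0.38 on the log2 scale with SE 0.10 (95% interval 0.18 to 0.58, adjusted p = 0.0103). At 3 days the counts were back at 3126, 2712, 2519, 3142 and 2925, all below those at 1 day, and 1.13% of all genes did not overlap in either direction between these groups. At 14 days the counts of Parp9 were 3199, 2713, 3398, 2552 and 3256. The step down from 1 to 3 days was −0.35 (limma adjusted p = 0.370). Exons of Parp9 and Dtx3l overlap in part, and whether counting used strand is not given in the sources used here, so some reads could belong to either gene.

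Parp12 (chr6:39077903-39118353, mm10) encodes a mono-ADP-ribosyltransferase with antiviral activity. Its untreated counts were 809, 1194, 936, 942 and 978, and after 1 day of NAM they were 1093, 1405, 1185, 1357 and 1068. The groups overlapped through untreated replicate 2. The mean rose from 972 ± 140.0 to 1222 ± 153, a log2 fold change of 0.33 with SE 0.10 (0.12 to 0.55, adjusted p = 0.0320). That call was lost when untreated replicate 1, 3, 4 or 5 or 1-day replicate 2 or 4 was left out, with adjusted p from 0.0524 to 0.0923, in fits on the compared groups alone (0.0763) or with library weights (0.0764), with no filter on low values (0.0528) and after quantile normalization (0.05004). At 3 days Parp12 stood at 1273, 921, 1001, 1042 and 1062, of which the highest is replicate 1.

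Parp14 (chr16:35832878-35871500, mm10), a transferase that acts as a cofactor of STAT6 and shapes macrophage responses to interferon, had a change of nearly the same size without passing the test. Its counts were 1454, 1588, 1179, 1464 and 1209.7 in untreated libraries and 1680.5, 1459, 1817, 1864 and 1747 at 1 day. Of the 5 libraries at 1 day, 4 lay above the whole untreated range and replicate 2 lay inside it. The log2 fold change was 0.32 with SE 0.11 (0.08 to 0.55, adjusted p = 0.0597), and it passed when untreated replicate 2, 1-day replicate 2 or 3-day replicate 1 was left out (adjusted p = 0.0422, 0.0372 and 0.0389). The Plec // Parp10 row did not share the direction, with a mean of 650 ± 169 in untreated libraries, 549 ± 108 at 1 day and a change of −0.22 (−0.56 to 0.11, adjusted p = 0.361).

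Among the DNA repair PARPs, the change that passed the test was in Parp2 (chr14:50807919-50821302, mm10), which backs up PARP1 at single-strand breaks. Its counts under the spleen label were 701, 718, 676, 656 and 669 in untreated libraries and 590.0, 510.0, 593, 540.2 and 549.9 after 1 day of NAM. The highest library at 1 day was below the lowest untreated one, a separation that 5.47% of all genes had in that direction. The mean fell from 684 ± 25.1 to 557 ± 35.2, a log2 fold change of −0.30 with SE 0.08 (−0.47 to −0.13, adjusted p = 0.0159). At 3 days the counts were 675, 564, 585, 612 and 535. Replicate 1 was within the untreated range and the other 4 libraries were below it. The change at 3 days was −0.21 with all libraries (adjusted p = 0.135) and −0.25 without replicate 1 (adjusted p = 0.0354). At 14 days the counts were 787, 641, 736, 604 and 613, all above those at 1 day, and 9.69% of all genes did not overlap in either direction between these groups. The rise from 1 to 14 days was 0.27 with SE 0.08 (adjusted p = 0.0333), a call that was lost without 14-day replicate 1 or 3 or 1-day replicate 2, 4 or 5 (adjusted p from 0.0543 to 0.1004). In the same comparison the B cell marker Pax5 rose (0.43), and of the macrophage markers Cd68 rose (0.42) while Vcam1 (−0.73) and Adgre1 (−0.45) fell. Their part in the rise of Parp2 was not tested.

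Parp1, the main sensor of DNA breaks, and Parp3, a transferase of double-strand break repair, gave no change that passed. Parp1 ran from 6985 to 9451 over the 20 libraries labeled spleen, with group means from 8128 at 3 days to 8794 in untreated libraries. The 1-day change was −0.10 (−0.26 to 0.06, adjusted p = 0.403). Parp3 was at 1961 to 2245 in untreated libraries and at 1835, 2229, 1838, 1719 and 1782 at 1 day, where replicate 2 stood apart from the other 4. The 1-day change was −0.16 (−0.39 to 0.06, adjusted p = 0.308). The interval of Parp3 includes a fall of the size measured in Parp2, and that of Parp1 does not.

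The 3 NAD glycohydrolases had changes near 0 at 1 day under the spleen label. Cd38 was at 1009, 909, 1148, 1102 and 995 in untreated libraries and at 1137, 791, 1015, 996 and 1114 at 1 day, with a log2 fold change of −0.04 (−0.26 to 0.19, adjusted p = 0.844). Bst1 changed by 0.02 (−0.29 to 0.34, adjusted p = 0.937) and Sarm1 by −0.04 (−0.42 to 0.34, adjusted p = 0.8998). The interval is widest for Sarm1, whose counts lay between 45.5 and 104 in the 20 libraries. Over 3 and 14 days these 3 genes ranged in their changes from −0.18 to −0.01, and none passed the test.

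**Figure D2:**
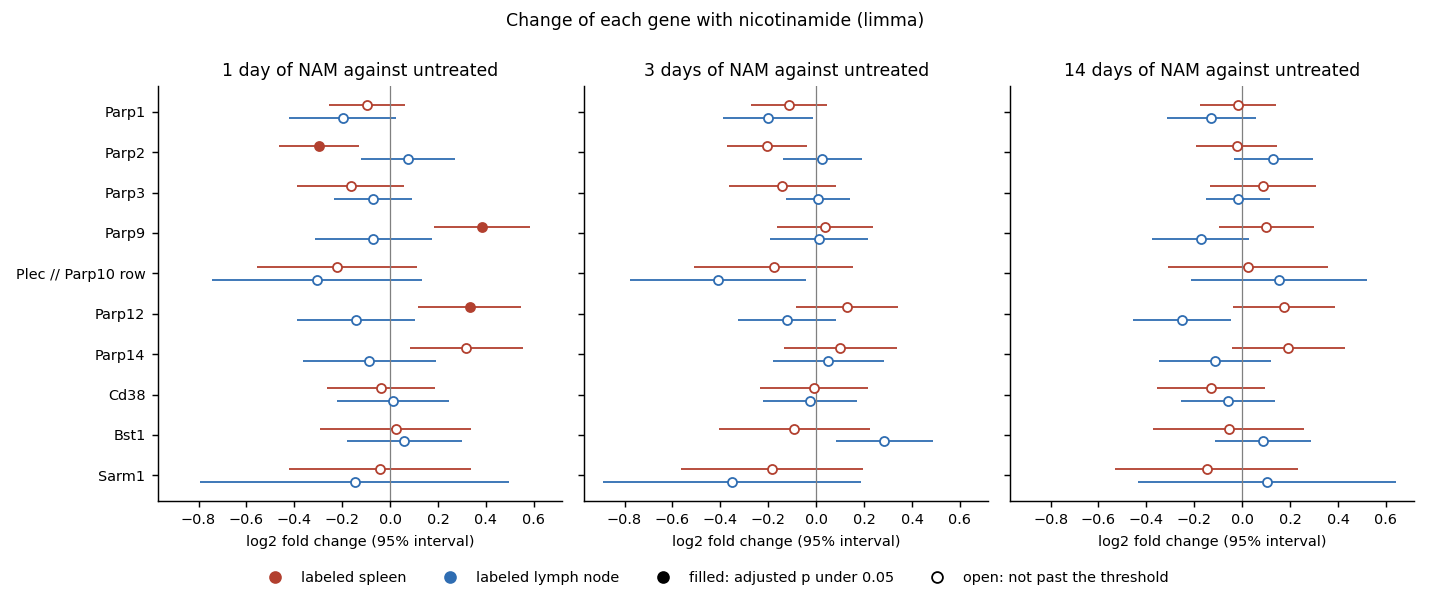
Log2 fold change of each member against untreated libraries of the same label at 1, 3 and 14 days of NAM, with 95% intervals from limma; filled symbols mark an adjusted p under 0.05. Parp9 and Parp12 lie to the right and Parp2 to the left of 0 at 1 day under the spleen label, and no other symbol is filled.

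At 3 days of NAM under the spleen label 0 members passed the limma test, 1 had an unadjusted p under 0.05 (Parp2), and edgeR and DESeq2 on recovered reads also called 0, while 5.55% of all genes passed. At 14 days 0 members had an unadjusted p under 0.05, edgeR and DESeq2 called 0 members, and the share of all genes that passed was 0%. The members' changes at 14 days ran from −0.15 (Sarm1) to 0.19 (Parp14). Between durations, 0 members passed from 1 to 3 days (1 with an unadjusted p under 0.05, 0 by edgeR and DESeq2, 0.00548% of all genes), and 1 passed from 1 to 14 days, where 10.6% of all genes did. From 3 to 14 days 0 passed (2 with an unadjusted p under 0.05, 0 by edgeR and DESeq2, 1.05% of all genes), the pair being Parp2 at 0.18 and Parp3 at 0.23. Without 3-day replicate 1 the Parp3 change was 0.33 with a limma adjusted p of 0.0221. Of all genes, 22% had an unadjusted limma p under 0.05 at 3 days and 2.8% at 14 days. From 1 to 3 days 6.98% had one, and from 3 to 14 days 16.7%.

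The contrast between the classes was summarized in each library as the mean log2(normalized count + 1) of the 4 interferon-linked rows minus that of the 3 DNA repair PARPs, as a description and with no test. Under the spleen label it was −0.91 ± 0.17 in untreated libraries (SD, n = 5, from −1.16 to −0.72) and −0.52 ± 0.11 at 1 day (−0.62 to −0.35), with no overlap. At 3 days it was −0.74 ± 0.10 and at 14 days −0.80 ± 0.12, both overlapping the untreated range. By gene, the median 1-day change was 0.32 over the interferon-linked rows (2 of 4 rose) and −0.16 over the DNA repair PARPs (1 of 3 fell), beside 0.01 over all genes. The Plec // Parp10 row is among the 4 interferon-linked rows although its value cannot be assigned to Parp10. Without it, a choice made after seeing the data, the contrast was −0.59 ± 0.15 in untreated libraries (−0.71 to −0.39) and −0.06 ± 0.11 at 1 day (−0.18 to 0.12), again with no overlap, and the median 1-day change of Parp9, Parp12 and Parp14 was 0.33. The genes that passed thus went up in the interferon-linked class and down in the DNA repair class, each by less than 0.4. Under the lymph node label the contrast was −1.12 ± 0.05 in untreated libraries (n = 3), −1.44 and −0.98 in the 2 libraries at 1 day, −1.18 ± 0.08 at 3 days (n = 4) and −1.21 ± 0.13 at 14 days (n = 4). Those ranges overlapped the untreated one at 1, 3 and 14 days.

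**Figure D3:**
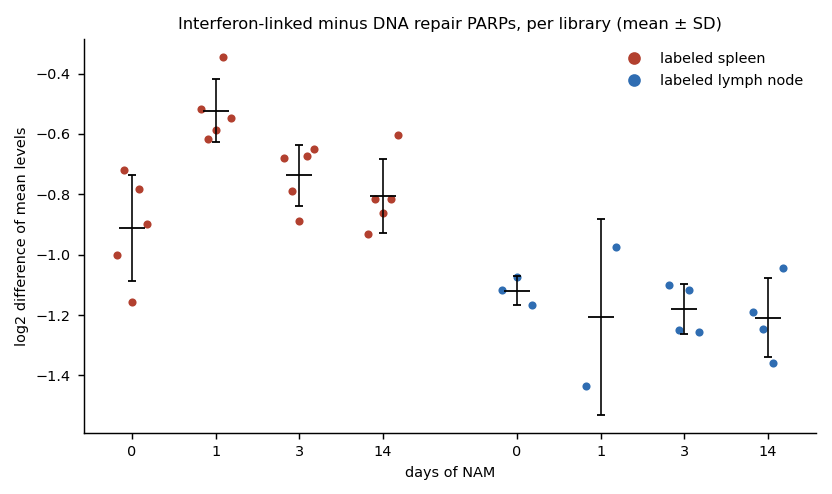
Mean log2(normalized count + 1) of the interferon-linked rows minus that of the DNA repair PARPs in every library (points, with group mean and SD), by days of NAM and label. The 5 libraries at 1 day under the spleen label lie between −0.62 and −0.35, above all 5 untreated libraries, and the lymph node label shows no such step.

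No member passed the test in any comparison under the lymph node label. At 1 day of NAM 0 members had an unadjusted limma p under 0.05, as 15% of all genes did. edgeR and DESeq2 called 0 members, and 1.21% of all genes passed by limma. Parp9 was at 3795, 4243 and 4091 in untreated libraries and at 3274 and 4520.0 at 1 day, on either side of the untreated range. The change was −0.07 (−0.31 to 0.17). Parp2 changed by 0.07 (−0.12 to 0.27), Parp12 by −0.14 (−0.39 to 0.10) and Parp14 by −0.09 (−0.36 to 0.19). Of the 2 libraries at 1 day, replicate 1 held 66273 summed counts of the pancreas genes Cela1, Cpa1, Pnlip and Ctrb1 against 611 to 1253 in the other 12 libraries of the label. Without it 0 members passed, in a fit where the lone library left at 1 day is assumed to vary like the other groups.

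At 3 days under the lymph node label 3 members had an unadjusted limma p under 0.05, beside 14.8% of all genes. After adjustment 0 members passed, by edgeR and DESeq2 as well, and 1.24% of all genes passed by limma. Bst1, an ectoenzyme of myeloid and stromal cells, was at 601, 544 and 607 in untreated libraries and at 654, 789, 731 and 675 at 3 days. All 4 libraries lay above the untreated ones, as 8.09% of all genes did (15.3% did not overlap in either direction). The change was 0.28 with SE 0.10 (0.08 to 0.49, unadjusted p = 0.00866 and adjusted p = 0.173 by limma), and at 14 days Bst1 was at 594, 654, 646 and 585. The Plec // Parp10 row was at 211, 196 and 159 in untreated libraries, at 147, 132, 134 and 152 at 3 days and at 226, 234, 164 and 219.6 at 14 days. Its change was −0.41 at 3 days (adjusted p = 0.285) and 0.56 from 3 to 14 days (adjusted p = 0.467). The remaining gene of the 3 was Parp1, at −0.20 (adjusted p = 0.300). Among erythroid genes, Klf1 changed by −3.18, Alas2 by −1.73 and Epor by −0.86 on the log2 scale (each past the test) in the same comparison. Of 4 stromal markers Ccl19 rose (0.50, adjusted p = 0.00918), the list median was −0.13, and sums were 6746 to 8506 in untreated libraries and 8751 to 10827 at 3 days, with no overlap. The part of the erythroid and stromal markers in these values was not tested.

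At 14 days under the lymph node label Parp12 had an unadjusted limma p of 0.0194, with counts of 1219, 1419 and 1508 in untreated libraries and 1295, 1103, 1041 and 1205 after NAM. The groups overlapped, and the change of −0.25 (−0.46 to −0.05) had an adjusted p of 0.298. No other member had an unadjusted limma p under 0.05, while 11.8% of all genes had one. edgeR and DESeq2 called 0 members, and 0.791% of all genes passed by limma. Between durations under this label 0 members passed, with 0.357% of all genes from 1 to 3 days, 0.401% from 1 to 14 days and 0.011% from 3 to 14 days. The members with an unadjusted limma p under 0.05 there numbered 0, 1 and 2 in the same order, the Plec // Parp10 row being the gene from 1 to 14 days and that row and Bst1 the pair from 3 to 14 days. Of all genes, 7.75%, 12.8% and 5.84% had an unadjusted limma p under 0.05, in the same order. Members called by edgeR and by DESeq2 numbered 0.

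Whether a member responded differently under the 2 labels was tested as the difference between the changes in 1 fit of all 33 libraries. At 1 day the difference (spleen label minus lymph node label) was 0.48 for Parp12 (SE 0.17, adjusted p = 0.135), 0.45 for Parp9 (SE 0.16, adjusted p = 0.137), 0.40 for Parp14 (SE 0.19, adjusted p = 0.276) and −0.37 for Parp2 (SE 0.13, adjusted p = 0.117). These 4 had unadjusted limma p-values from 0.00693 to 0.0442, and 17.1% of all genes had an unadjusted p under 0.05. After adjustment 0 members passed, beside 1.69% of all genes. They rest on 2 libraries at 1 day under the lymph node label, of which replicate 1 is the one high in pancreas genes. Without replicate 1 the difference was 0.35 for Parp12, 0.22 for Parp9, 0.19 for Parp14 and −0.40 for Parp2 (limma adjusted p from 0.232 to 0.752). Without replicate 2 it was 0.60, 0.69, 0.62 and −0.35 in the same order (limma adjusted p from 0.0797 to 0.330). At 3 days 0 members had an unadjusted p under 0.05 and 0.735% of all genes passed. At 14 days Parp12 alone had one, at 0.43 (SE 0.15, limma adjusted p = 0.701), beside 4.85% of all genes, and 0.140% of all genes passed. edgeR and DESeq2 called 0 members in all 3. A difference between the labels was thus not shown for any member.

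Other genes of the same pathways were read from lists of fixed membership. Of 9 other PARP family genes (Parp4, Parp6, Parp8, Parp11, Parp16, Tnks, Tnks2, Tiparp and Zc3hav1), 1 rose and 0 fell at 1 day under the spleen label. That gene was Tnks2, the tankyrase that modifies axin and telomere proteins, which went from 2328 to 3045 normalized counts (log2 fold change 0.39, SE 0.06, adjusted p = 0.000839) and was still up at 3 days (0.30, adjusted p = 0.0133), a call lost without 3-day replicate 5 (adjusted p = 0.0545). Leaving out libraries for the genes of these lists was added after seeing the data. The antiviral PARP Zc3hav1 (ZAP) changed by 0.07 at 1 day (adjusted p = 0.620) and Tiparp by 0.11 (adjusted p = 0.501). Under the lymph node label 0 of 9 passed against untreated libraries by limma, edgeR or DESeq2, with at most 3 at an unadjusted limma p under 0.05. Of 16 genes of ADP-ribose turnover and single-strand break repair, 0 passed in any of the 15 comparisons by limma, with 0 to 5 at an unadjusted p under 0.05 and list medians from −0.09 to 0.09. By edgeR 1 passed in 1 comparison and by DESeq2 up to 2 in 2. The gene that both called at 1 day under the spleen label was Hpf1, the cofactor that directs PARP1 and PARP2 to serine, which went from 818 to 1018 normalized counts (log2 fold change 0.31, SE 0.11, limma adjusted p = 0.0521) and is named after its values were seen. In that comparison Parg, which removes poly(ADP-ribose), changed by 0.08 and Xrcc1, the scaffold recruited by PARP1, by −0.10.

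The interferon reference list of 15 genes moved more widely. At 1 day under the spleen label 10 rose and 0 fell, with a median log2 fold change of 0.62 over the list and 0.01 over all genes. Isg15, a ubiquitin-like modifier, went from 548 to 1232 normalized counts (1.19, adjusted p = 0.000483), Ifit3 rose by 1.45 (adjusted p = 0.000306) and Rsad2 by 1.38 (adjusted p = 0.00154). The Parp9 partner Dtx3l changed by 0.23 (adjusted p = 0.0750). Under the lymph node label the list went the other way at 14 days, when 0 rose and 6 fell, with Rsad2 at −1.57 (adjusted p = 0.00290), Isg15 at −0.86 (adjusted p = 0.0138) and Ifit3 at −0.81 (adjusted p = 0.0360). With 1 library left out Rsad2 passed in 13 of 13 fits, Isg15 in 11 (lost without untreated replicate 2 or 3) and Ifit3 in 8 (lost without those or 14-day replicate 1, 2 or 4). In the same comparison the erythroid genes Klf1 (−2.14) and Epor (−1.17) passed the test, and summed counts of the spleen markers Spic, Tlx1 and Nkx2-5 were 9731 to 10485 in untreated libraries and 6713 to 8864 at 14 days, with no overlap. None of these spleen markers passed by limma, and 11.5% of all genes did not overlap between the groups. The part of the erythroid and spleen markers in these values and in that of Parp12 was not tested. The 4 interferon-linked rows had a median of −0.14 there, and 0 of 4 passed by limma, edgeR or DESeq2 (1 with an unadjusted limma p under 0.05, Parp12). From 1 to 14 days under the spleen label 0 of the 15 reference genes rose and 5 fell, among them Isg15 at −0.83 (adjusted p = 0.00682). The difference between the labels at 1 day passed for 8 of the 15 genes, among them Dtx3l at 0.52 (SE 0.14, adjusted p = 0.0478), and at 14 days for 3. None of the 8 passed without 1-day replicate 1 of the lymph node label, the library high in pancreas genes, where Isg15 was at 1.14, Ifit3 at 1.30, Rsad2 at 1.78 and Dtx3l at 0.40 (limma adjusted p from 0.1002 to 0.254). The Dtx3l difference passed in 10 of 33 fits that left out 1 library.

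**Figure D4:**
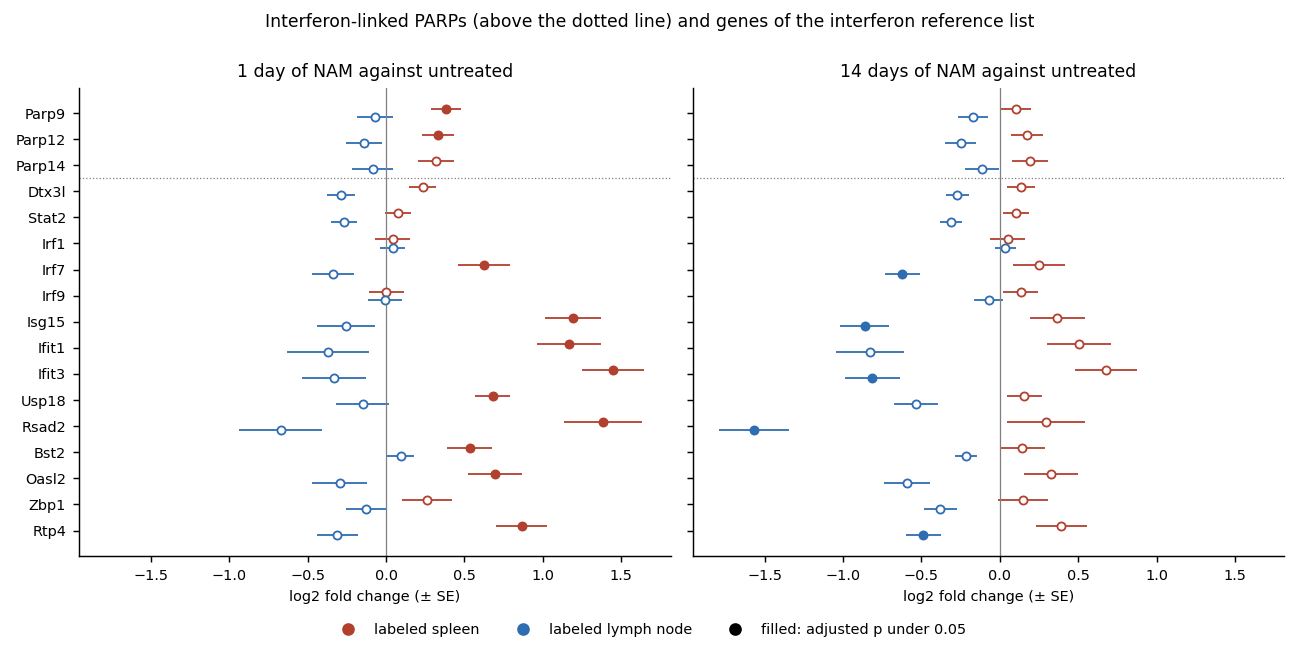
Log2 fold change against untreated libraries, with standard errors from limma, of Parp9, Parp12 and Parp14 and of genes of the interferon reference list at 1 and 14 days of NAM under each label; filled symbols mark an adjusted p under 0.05. At 1 day under the spleen label Isg15 (1.19) and Rsad2 (1.38) stand well above Parp9 (0.38), Parp12 (0.33) and Parp14 (0.32).

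Among genes that supply or use NAD, 1 of 16 rose at 1 day under the spleen label and 0 passed against untreated libraries elsewhere by limma, edgeR or DESeq2, with at most 2 at an unadjusted limma p under 0.05. That gene was Nnmt, which methylates nicotinamide, at 278 normalized counts in untreated libraries and 774 at 1 day (log2 fold change 1.44, SE 0.42, limma adjusted p = 0.0259), a call lost without untreated replicate 1 or 3 or 1-day replicate 2 or 4 (adjusted p up to 0.0758). Summed adipocyte genes were lowest among untreated libraries in replicates 1 and 3 (16802 and 30596). At 1 day they were highest in replicates 2 and 4 (211730 and 112786). No adipocyte gene passed by limma in this comparison. Their part in the change of Nnmt was not tested. Nampt, the enzyme that salvages nicotinamide, changed by 0.20 under the spleen label (adjusted p = 0.228) and by 0.25 under the lymph node label (adjusted p = 0.229) at 1 day. Of 11 tested genes of extracellular NAD and nucleotides, 1 fell at 1 day and 2 fell at 3 days under the spleen label, and 1 of 12 rose at 1 day under the lymph node label. The ATP- and ADP-splitting ectoenzyme Entpd1 (CD39) fell by 0.27 at 1 day (adjusted p = 0.0441) and by 0.36 at 3 days (adjusted p = 0.0261) under the spleen label, and its 1-day rise under the lymph node label was 0.47 (adjusted p = 0.0482). That difference between labels, −0.74, passed the test (SE 0.15, adjusted p = 0.0119). With 1 library left out, the 1-day change of Entpd1 passed in 9 of 20 fits under the spleen label (−0.33 to −0.22) and in 3 of 13 under the other (0.41 to 0.53, adjusted p = 0.141 and 0.224 without 1-day replicate 1 and 2). The difference passed without 1-day replicate 1 of the lymph node label (−0.80, adjusted p = 0.0442) and not without replicate 2 (−0.68, adjusted p = 0.0854). Under that label at 1 day the lymph node marker Ccl21a rose (0.90, difference between labels −1.21, both past the test). Sums of macrophage markers were 54928 to 56299 in untreated libraries and 65196 to 72647 at 1 day, and those of neutrophil markers were 9781 to 18904 and 22740 to 31229, with no overlap in either. Between these small groups 32.6% of all genes did not overlap, and no marker of the 2 lists passed by limma. The ADP-ribose-gated channel Trpm2 fell by 0.45 at 3 days under the spleen label (adjusted p = 0.0268). Without 1 library, that fall passed in 14 of 20 fits and the 3-day fall of Entpd1 in 15, both being lost without 3-day replicate 2, 3 or 5. Markers that passed at 3 days under the spleen label were Cd68 (−0.45) and Vcam1 (0.37) of macrophages, Xcr1 (−0.44) of dendritic cells, Madcam1 (−0.89) of lymph node vessels and Prdm1 (−0.47) of plasma cells. The part of these markers in the changes of Entpd1 and Trpm2 was not tested.

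Cell type markers moved with the 1-day comparison under the spleen label. The B cell marker Pax5 fell (−0.46), from 4084 to 5088 normalized counts in untreated libraries to 2495 to 4202 at 1 day, while Ms4a1 was at 4844 to 5797 and 4454 to 6991. Of 5 macrophage markers Vcam1 rose (0.64) and Cd68 fell (−0.53), with sums of 13365 to 18040 and 14160 to 16633. Madcam1, an addressin of lymph node vessels, fell (−0.69, adjusted p = 0.0177). Of 4 plasma cell markers Xbp1 rose (0.33), Sdc1 (−0.39), Tnfrsf17 (−0.24) and Prdm1 (−0.23) had values below 0 without passing, the list median was −0.24, and sums were 6987 to 8591 and 8356 to 12980. No adipocyte or neutrophil marker passed by limma (0 and 1 with an unadjusted p under 0.05, 0 and 1 by edgeR, 0 and 3 by DESeq2), but sums ran from 16802 to 106955 and from 50637 to 211730 for adipocyte genes, and from 168 to 967 and from 304 to 8782 for neutrophil genes, the highest being 1-day replicate 3. The neutrophil marker Ly6g was at 0 in some libraries of both groups. Without that library the same 3 members passed. Of 10 proliferation genes 0 passed in any comparison by limma or edgeR, with 0 to 6 at an unadjusted p under 0.05 and at most 1 by DESeq2. The part of these markers in the changes of Parp2, Parp9 and Parp12 was not tested.

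The genes most like each member were found by Pearson correlation of log2(normalized count + 1) over the libraries of a label, which share depth, cell mix and treatment, and are given as a description. Over the 20 libraries labeled spleen Parp9 was most like Rprd1b (r = 0.92), Ifit2 (0.91) and Trim30a (0.91), Parp14 like Ifit2, Dhx58 and Dtx3l (0.86 each) and Parp12 like Ifih1 (0.89), Mtmr10 (0.87) and Gatb (0.87). Several of these are interferon-stimulated genes. Over the 13 libraries labeled lymph node Parp9 was most like Xaf1 (0.93), Ifit1 (0.91) and Mx2 (0.90), whereas the genes nearest Parp12 (Ptprg, 0.86) and Parp14 (Gm3414, 0.88) are not known as interferon-stimulated. Parp1 was nearest Trpv2 (0.94), Parp2 nearest Mast3 (0.92) and Parp3 nearest Evi5l (0.87) under the spleen label, so no DNA repair PARP had another PARP or a repair gene of the lists among its nearest 3. Cd38 was nearest Art2b (0.92), itself an NAD-consuming ecto-ADP-ribosyltransferase of lymphocytes, under the spleen label and Cdc14a (0.89) under the lymph node label. Bst1, which lies beside Cd38 on chromosome 5 (chr5:43818893-43843468 and chr5:43868809-43912374, mm10), was nearest Trp53 (0.94) and Serpina1e (0.84) in turn, and Sarm1 nearest Tab1 (0.81) and Wdr13 (0.87).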

How the data were processed

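RNA of 33 libraries (polyA-selected, paired-end) was measured by sequencing. The authors deposited 1 table of normalized counts per gene, in which each library's reads were divided by a size factor (a depth-scaled signal); the submitters' processing notes name STAR 2.4.0, SAMtools, Picard, FastQC, DESeq2 and the mm10 build. All per-library columns could be mapped (0 left unmapped), and no column of the authors' own comparisons was used. The deposited values gave back whole reads for 100% of entries (tolerance 0.02 reads), with 18325061 to 54830743 reads per library under the spleen label and 30424968 to 46733974 under the lymph node label. The labels had been scaled separately, so tests stayed within a label or used the difference between changes.

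The main test was limma 3.58.1 in R 4.3.3 on log2(normalized count + 1) with an intensity trend, all 4 groups of a label in 1 fit, genes with a mean of at least 10, two-sided, with Benjamini-Hochberg adjustment at 0.05 over every gene tested. Fold changes are on that scale and understate those of low genes. edgeR 4.0.16 and DESeq2 1.42.0 were run on the recovered reads as alternatives, beside other pseudocounts, scalings, filters, weights, group choices, a replicate block and each library left out (11 alternatives in all). The main fit was tried on simulated data whose set changes were larger than any change of a member. It therefore does not show how often changes of the members' size are found. No 2 libraries of a group agreed within sampling noise. Within a label, same-numbered libraries of different groups correlated over a range like that of other pairs, so the numbers were not used as pairs. Whether 1 mouse gave libraries under both labels was not checked. Python 3.11.15 was used for tables and plots.

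All members are named whatever their values. Of each pathway list, the up to 3 genes with the largest changes past the threshold and 9 fixed genes are named, and the 3 genes most like each member. The members and lists were chosen with earlier results of these data known. Overlapping genes and the row shared by Plec and Parp10 cannot be resolved from gene counts. Intervals and SDs cover the spread between libraries. Some genes of the lists are not reported here.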

Additional observations from a re-analysis of the deposited data

Results flagged for a closer look

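Over 66 sets of 4 or 5 libraries (60 of a member in a group and 6 of the contrast between the classes in a group), 2 held a library far from the others, where chance gives about 1 in 20. Parp3 stood at 2229 normalized counts in 1-day replicate 2 under the spleen label and at 1719 to 1838 in the other 4 libraries. Sarm1 stood at 24.8 in 3-day replicate 2 under the lymph node label and at 42.0 to 45.5 in the other 3.

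The response to NAM differed between the labels for 0 members and for the genes of the pathway lists given here, each as the spleen label's log2 fold change minus that of the lymph node label with its limma adjusted p. Of the 15 interferon reference genes 8 differed at 1 day, and those given are the 3 with the largest changes and the genes fixed by name. At 1 day the difference was 0.52 for Dtx3l (SE 0.14, adjusted p = 0.0478). It was 1.45 for Isg15 (SE 0.30, adjusted p = 0.0118). Ifit1 differed by 1.54 (SE 0.37, adjusted p = 0.0329). For Ifit3 the difference was 1.78 (SE 0.34, adjusted p = 0.00701). Rsad2 differed by 2.06 (SE 0.42, adjusted p = 0.0116). Entpd1 differed in the opposite sense, by −0.74 (SE 0.15, adjusted p = 0.0119). Without 1-day replicate 1 of the lymph node label the 1-day differences of the interferon genes no longer passed (adjusted p from 0.1002 to 0.318 over the 8), and without replicate 2 that of Entpd1 did not. Without replicate 2 that of Dtx3l did not pass either (adjusted p = 0.0630), and with any 1 library left out it passed in 10 of 33 fits (0.40 to 0.64). With 1 library left out, the 14-day differences passed in 9 of 33 fits for Isg15, 25 for Ifit3 and 24 for Rsad2. At 14 days the difference was 1.23 for Isg15 (SE 0.27, adjusted p = 0.0493), 1.49 for Ifit3 (SE 0.30, adjusted p = 0.0281) and 1.86 for Rsad2 (SE 0.37, adjusted p = 0.0281).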

How the results depend on the processing

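Of 4620 refits of a single member's change, 4584 kept their side of the threshold, 21 lost a call and 15 gained one. The sign differed from the reported value in 153 refits, 0 of them of a change that had passed the test. At 1 day under the spleen label Parp9 (0.33 to 0.43) and Parp2 (−0.33 to −0.27) passed in 31 of 31 fits, Parp12 (0.24 to 0.41) in 21 and Parp14 (0.26 to 0.37) in 4. Requiring an unadjusted p of at most 0.05 and a 1.5-fold change left 0 members there (1497 genes instead of 3030) and 0 from 1 to 14 days (943 instead of 1940). From 1 to 14 days, 0 members also passed with no filter and with the compared groups alone, 2 with DESeq2 (Parp2 and Parp9) and 3 with library weights (Parp2, Parp3 and Parp9). Library weights gave 2 members at 3 days (Parp2 and Parp3), 2 from 3 to 14 days and 1 for the difference between labels at 3 days (Parp2). Leaving out 1 library gave 2 to 4 members at 1 day, 0 to 1 at 3 days, 0 to 1 from 1 to 14 days, 0 to 1 from 3 to 14 days and 0 elsewhere.

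Beside those from leaving out 1 library, the count of all genes that passed moved by over 1.5 times in these cases. At 3 days under the spleen label (1013) it was 4722 with weights, 1686 by DESeq2, 620 by the fold rule, 572 with no filter, 140 with the compared groups alone and 2782 without 3-day replicate 1. From 3 to 14 days (192) it was 3137, 837, 342, 22 and 3 in the same order of settings and 305 by edgeR. Under the lymph node label at 1, 3 and 14 days (221, 226 and 144) DESeq2 called 540, 493 and 381 and the fold rule 894, 615 and 630, with 139 at 1 day without a filter, 557 and 278 at 3 and 14 days with weights and 55 at 14 days with the compared groups alone. Between durations under that label (65, 73 and 2 from 1 to 3, 1 to 14 and 3 to 14 days) DESeq2 called 183, 385 and 55, the fold rule 550, 779 and 278, and the unfiltered fit 43, 47 and 1, with 19 and 13 for the first 2 with weights, 47 from 1 to 14 days after quantile normalization, 39 from 1 to 14 and 4 from 3 to 14 days with the compared groups alone and 1 from 3 to 14 days by edgeR. For the difference between labels at 1, 3 and 14 days (290, 126 and 24) DESeq2 called 659, 337 and 42, the fold rule 1156, 639 and 430 and the compared groups alone 148, 80 and 4, with 172 at 1 day unfiltered and 882 and 1944 at 1 and 3 days with weights. Under the spleen label the count at 14 days (0) became 204 by the fold rule and 1 by DESeq2 or unfiltered, and that from 1 to 3 days (1) became 332, 36 and 2 in the same order, 26 with weights and 0 by edgeR, with a pseudocount of 0.1 or with the compared groups alone. Leaving out 1 library gave, against untreated at 1, 3 and 14 days, 2277 to 3547, 158 to 2782 and 0 genes under the spleen label, 66 to 268, 85 to 302 and 31 to 173 under the other, and 58 to 771, 33 to 883 and 4 to 28 for the difference between labels. From 1 to 3, 1 to 14 and 3 to 14 days it gave 0 to 3, 1214 to 2616 and 0 to 2144 for the spleen label and 14 to 69, 17 to 128 and 0 to 9 for the lymph node label. The cause of these moves was not tested. Without the Plec // Parp10 row, an alternative chosen after seeing the data, the contrast between the classes, for untreated mice and then by rising duration, was −0.59, −0.0575, −0.35 and −0.45 in libraries labeled spleen and −0.27, −0.30, −0.23 and −0.44 in those labeled lymph node, a shift that the removal of that low row makes by construction. The replicate block changed no member count. Same-numbered libraries of different groups correlated at −0.50 to 0.47 (spleen label) and −0.11 to 0.08 (lymph node label). Pairs with different numbers ran from −0.56 to 0.55 and from −0.10 to 0.11. Pairs across the labels were not checked. The block gave 132 genes at 1 day under the lymph node label, 4 from 3 to 14 days (2) and 79 for the difference between labels at 3 days (126).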
